A study of Homo sapiens with 6 samples.

Results

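The thioredoxin and glutathione redox genes described here are TXNIP, ARRDC4, TXN, TXNRD1, GLRX, PRDX1, GPX4, NQO1, SRXN1 and GCLM, which were found by their symbols in the gene lists of the deposited matrices. They were 10 of the 36601 genes listed, each symbol matched 1 gene, and all 10 passed the low-count filter that left 16763 genes for testing. All libraries were made from SK-N-BE(2)-C cells, a long-established MYCN-amplified line of human neuroblastoma, profiled with Seq-Well S3, in which single cells settle into small wells with barcoded beads and each captured mRNA molecule is counted once through its unique molecular identifier (UMI). There were 3 groups of 2 libraries: cells given DMSO, the solvent control; cells given TSA (trichostatin A, an inhibitor of the catalytic activity of zinc-dependent histone deacetylases, or HDACs); and cells given E6R, a compound that the labels name by its code alone. By its title the study concerns an inhibitor that acts on an HDAC complex without blocking the enzyme, and the question addressed was how far the transcriptome moves under each treatment. Neither dose nor duration nor the structure of E6R is stated in the labels. They number the replicates 1 and 2 without saying whether they were separate cultures, so p-values measure the spread between these libraries, which may be technical. All groups share the same line and genotype.

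Cells use a pair of thiol systems to keep protein cysteines reduced and to remove peroxides. In the thioredoxin system, thioredoxin reductase (TXNRD1) passes electrons from NADPH to thioredoxin (TXN), which in turn reduces peroxiredoxins such as PRDX1, while sulfiredoxin (SRXN1) repairs peroxiredoxins that have been over-oxidised. In the glutathione system, glutamate-cysteine ligase, of which GCLM is the modifier subunit, makes the precursor of glutathione, which glutaredoxin (GLRX) and the lipid peroxidase GPX4 use. TXNIP is an alpha-arrestin that binds and inhibits thioredoxin and lowers glucose uptake. Its relative ARRDC4 is, like TXNIP, switched on by the glucose-sensing factors MLX and MondoA. TXNRD1, SRXN1, NQO1, GCLM and PRDX1 are textbook targets of NRF2 (NFE2L2), which binds antioxidant response elements and is held in check by KEAP1. TXNIP is also known as a gene that HDAC inhibitors raise in many cell types.

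The stretches of DNA before the start sites of 4 members are shown because they carry the binding letters of these factors: an E-box or paired E-box-like letters in the alpha-arrestin genes, and the antioxidant response element core in TXNRD1 and GCLM. Each is the 250 bases before an annotated start, 5′ to 3′ on the gene's strand, from RefSeq on GRCh38.p14. They lie at chr1:145996580-145996829 (minus strand) for TXNIP, chr15:97960453-97960702 (plus) for ARRDC4, chr12:104286782-104287031 (plus, the second of 2 start sites) for TXNRD1 and chr1:93909431-93909680 (minus) for GCLM. Capitals mark the match.
TXNIP: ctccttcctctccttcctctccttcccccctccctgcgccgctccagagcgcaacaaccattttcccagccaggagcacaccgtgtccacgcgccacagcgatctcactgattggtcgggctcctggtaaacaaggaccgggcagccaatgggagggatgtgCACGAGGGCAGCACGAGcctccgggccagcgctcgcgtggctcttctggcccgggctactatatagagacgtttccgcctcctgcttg
ARRDC4: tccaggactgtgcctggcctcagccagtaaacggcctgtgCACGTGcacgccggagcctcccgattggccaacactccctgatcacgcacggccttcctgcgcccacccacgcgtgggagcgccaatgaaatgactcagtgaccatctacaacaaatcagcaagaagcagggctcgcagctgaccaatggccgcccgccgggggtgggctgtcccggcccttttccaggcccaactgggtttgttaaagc
TXNRD1: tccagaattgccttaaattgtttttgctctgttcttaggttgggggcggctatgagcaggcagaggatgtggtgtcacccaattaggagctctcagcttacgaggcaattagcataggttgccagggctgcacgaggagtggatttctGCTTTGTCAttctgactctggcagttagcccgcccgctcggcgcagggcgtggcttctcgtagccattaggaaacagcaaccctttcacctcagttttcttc
GCLM: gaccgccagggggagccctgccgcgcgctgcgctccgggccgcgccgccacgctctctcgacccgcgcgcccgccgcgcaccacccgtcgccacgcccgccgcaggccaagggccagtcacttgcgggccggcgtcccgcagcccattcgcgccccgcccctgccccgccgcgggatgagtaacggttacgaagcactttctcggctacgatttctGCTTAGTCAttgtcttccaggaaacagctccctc

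Of the 10 members, 9 had such a window in the table used, with 13 windows between them, and PRDX1 had none. The letters were searched on both strands in 35116 windows of the same length. Paired E-box-like letters, CACGNG followed by 5 bases of any kind and by CACGNG again, the form to which MLX and MondoA bind in pairs, were held by 16 windows in all, a share of 0.0456%. The window of TXNIP was one of these, with the match starting 88 bases before the start site. A single E-box, CACGTG, was in 6.35% of windows, and ARRDC4 was the member with one, 210 bases before its start. The core letters of the antioxidant response element, TGACNNNGC, were in 10.9% of windows and in those of TXNRD1 and GCLM, in TXNRD1 at both start sites. In the TXNRD1 window shown the match begins 102 bases before the start, and in GCLM 34 bases before it. A match describes the letters, not a bound site, and elements that lie farther away are outside these windows.

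The libraries held between 1861 and 3946 cells each (at least 500 genes detected and at most 20% mitochondrial UMIs), 17589 in all, with 4206366 to 26180262 UMIs per library and medians of 1054 to 1880 UMIs per cell. Mitochondrial transcripts took 1.51% and 1.55% of UMIs in the E6R libraries and 5.83% to 9.71% in the other 4. The adrenergic neuroblastoma markers HAND2, GATA3 and MYCN were detected in every library, which does not show that marker levels were alike. In CPM (counts scaled to library size), PHOX2A was at 72.2 and 62.3 with DMSO, 14.4 and 13.1 with TSA, and 74.9 and 130 with E6R. DBH differed between replicates, at 194 and 724 CPM with DMSO, 162 and 158 with TSA, and 224 and 1145 with E6R. HAND2 and GATA3 were not called in any comparison below. T cell markers summed to at most 1.67 CPM and epithelial markers to at most 2.29 CPM, while the 5 myeloid markers summed to between 8.37 and 17.5 CPM. Endothelial markers, 4 in number, summed to 55.6 CPM in DMSO replicate 1 and 65.8 CPM in E6R replicate 1, and to between 1.91 and 10.6 CPM in the other 4 libraries, where CLDN5 was at 0 in 3. The 5 fibroblast markers summed to between 27.3 and 256 CPM, with the higher value of each group in replicate 1 and none of the 5 at 0 in any library. The part of these differences in the values below was not tested, and values without each library are given where a call rests on one. Libraries shared 11 to 58 cell barcodes per pair, where random draws from 12 bases would give under 0.775.

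Levels are UMI sums over the cells of a library as CPM, scaled by the trimmed mean of M values (TMM). Differences are log2 fold changes from edgeR's quasi-likelihood test over all 6 libraries, and a gene was called at a Benjamini-Hochberg adjusted p under 0.05 over all genes tested. After TSA, 7 of the 10 members were called against DMSO, 4 higher (TXNIP, ARRDC4, PRDX1 and GPX4) and 3 lower (TXN, NQO1 and GCLM). Over all genes 29.7% were called, 16.2% higher and 13.5% lower. The members were chosen with earlier results of these data known. Their count therefore does not test whether redox genes change more often than others. Leaving out 1 library left between 3 and 7 members called, with 3 without TSA replicate 2 and 4 without DMSO replicate 1 or TSA replicate 1. After E6R, 0 of the 10 were called against DMSO by edgeR, as were 0% of all genes. At an unadjusted p under 0.05, 4 members passed in that comparison, against 17.4% of all genes. DESeq2 called 1 member (GCLM) and 2.14% of all genes, and edgeR with no low-count filter called 2 members (TXN and GLRX) and 3.47% of all genes. Between E6R and TSA, 5 members were called, against 38.2% of all genes. By levels alone, the libraries of the groups compared did not overlap for 8 members in TSA against DMSO, where 71.3% of all genes did not, and for 7 in E6R against TSA, where 72.6% did not. The medians over the 10 members were 0.57 for TSA minus DMSO, 0.35 for E6R minus DMSO and -0.24 for E6R minus TSA on the log2 scale. The same medians over all genes tested were -0.011, 0.030 and -0.093. The comparisons share libraries with one another and are not independent.

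**Figure D1:**
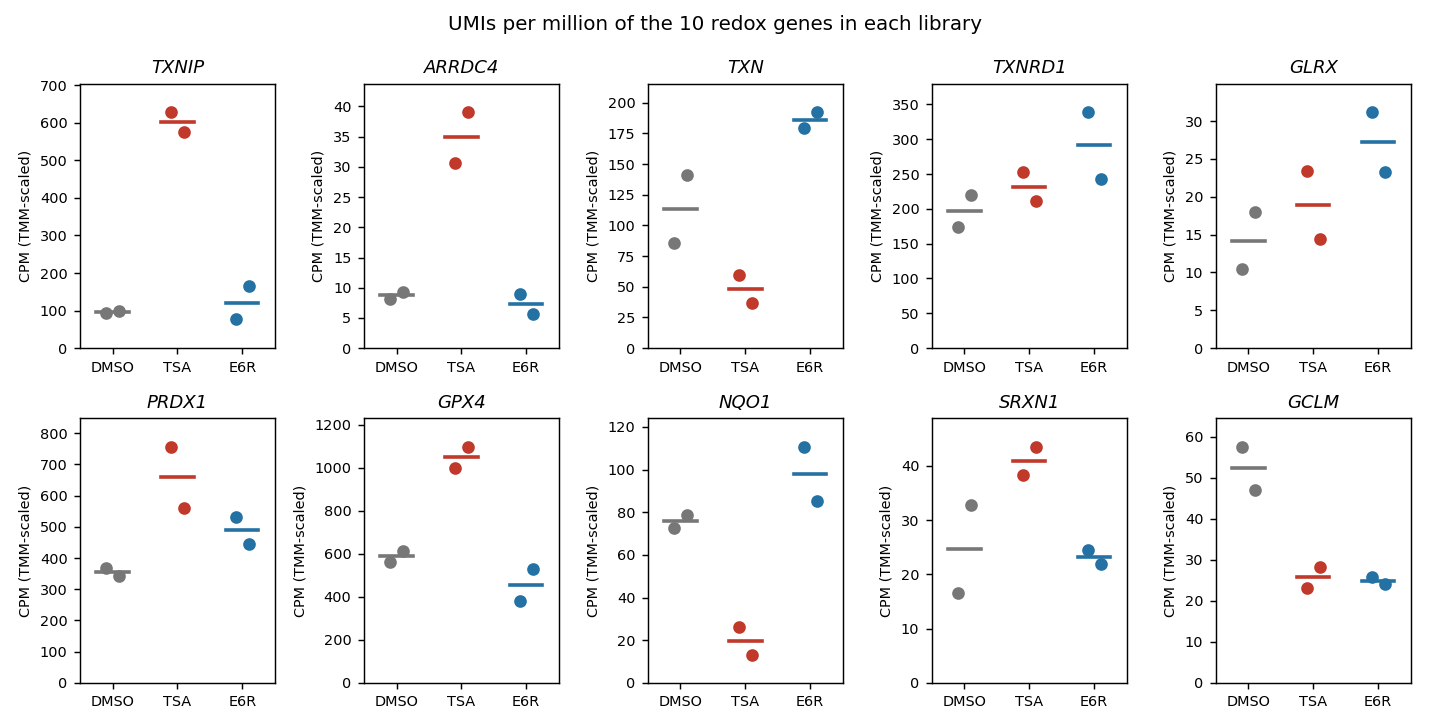
Level of each of the 10 redox genes in every library, in TMM-scaled CPM, with a point for each library and a bar at the group mean. TXNIP and ARRDC4 stand above both other groups in both TSA libraries, while TXN and NQO1 stand below both other groups.

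TXNIP was at 93.1 and 99.3 CPM in the DMSO libraries, 629 and 575 CPM in the TSA libraries, and 76.3 and 166 CPM in the E6R libraries. Both TSA libraries were thus far above the other 4, and the E6R libraries lay on either side of the DMSO ones. Group means were 96.2 ± 4.39 CPM (SD, n = 2) for DMSO, 602 ± 37.9 CPM for TSA and 121 ± 63.8 CPM for E6R. TXNIP rose 6.26-fold after TSA (log2 fold change 2.65, SE 0.35, edgeR adjusted p = 0.00235). Its call held in all 17 alternatives to the processing, with log2 fold changes from 2.34 to 2.75. E6R minus DMSO was 0.34 (SE 0.34, adjusted p = 0.633). Dropping E6R replicate 1 gave 0.90 and dropping E6R replicate 2 gave -0.29, so its direction rests on which E6R library is used. In the direct comparison TXNIP was lower under E6R than under TSA, at 0.202 of the TSA level (log2 fold change -2.31, SE 0.35, adjusted p = 0.00216). The gene lies on chromosome 1 at 145992435 to 145996600 on the minus strand (GRCh38, GENCODE 29) and overlaps no other annotated gene.

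ARRDC4, on chromosome 15 at 97960698 to 97973838 (plus strand), had 8.07 and 9.37 CPM with DMSO, 30.7 and 39.1 CPM with TSA, and 8.97 and 5.68 CPM with E6R. The TSA libraries were above the other 4, and those of DMSO and E6R overlapped. ARRDC4 rose 3.99-fold after TSA (log2 fold change 2.00, SE 0.32, adjusted p = 0.00445). Without TSA replicate 2 the value was 1.85, with an adjusted p of 0.0503. After E6R the difference from DMSO was -0.26 (SE 0.32, adjusted p = 0.712). E6R minus TSA was -2.26 (SE 0.32, adjusted p = 0.00163), a difference called in all 17 alternatives.

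TXN, the small disulfide reductase that TXNIP binds, moved in the other direction after TSA. It had 85.6 and 141 CPM with DMSO, 59.6 and 37.1 CPM with TSA, and 179.6 and 192.5 CPM with E6R. No 2 groups overlapped: TSA was lowest, DMSO lay between and E6R was highest. The group means were 113 ± 39.3, 48.4 ± 15.9 and 186 ± 9.12 CPM (SD, n = 2 each). TXN fell to 0.427 of the DMSO level after TSA (log2 fold change -1.23, SE 0.31, adjusted p = 0.0208). Without DMSO replicate 2 the value was -0.90 (adjusted p = 0.107), and without TSA replicate 2 it was -0.89 (adjusted p = 0.159). E6R minus DMSO was 0.71 (SE 0.30), with an unadjusted p of 0.0461 in edgeR and an adjusted p of 0.280. With no low-count filter it was 0.88 with an adjusted p of 0.0231. Against TSA, TXN under E6R was 3.84-fold higher (a log2 difference of 1.94, SE 0.31, adjusted p = 0.00269). The gene is on chromosome 9 at 110243811 to 110256640 (minus strand). GENCODE 29 names 7 pseudogenes of it, none of which the matrices list, and how reads shared with those copies were counted is not stated.

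TXNRD1, the cytosolic selenoenzyme that recharges thioredoxin, was not called in any comparison. Its levels were 174.6 and 220.5 CPM with DMSO, 253 and 211 CPM with TSA, and 339 and 243 CPM with E6R. The TSA and DMSO libraries overlapped, as did those of E6R and TSA, and both E6R libraries were above both DMSO libraries. The log2 fold change was 0.23 (SE 0.24, adjusted p = 0.488) for TSA, 0.56 (SE 0.24, adjusted p = 0.284) for E6R and 0.33 (SE 0.24, adjusted p = 0.306) for E6R minus TSA. GLRX, the dithiol glutaredoxin that removes glutathione from proteins, was not called either. It was at 10.4 and 17.98 CPM with DMSO, 23.5 and 14.4 CPM with TSA, and 31.2 and 23.3 CPM with E6R. Its E6R minus DMSO value of 0.93 (SE 0.37) had an unadjusted p of 0.0342 and an adjusted p of 0.253. With no low-count filter it was 1.10 with an adjusted p of 0.0363. TXNRD1 (chromosome 12, 104215779 to 104350305, plus strand) overlaps EID3 on its own strand and an antisense gene, AC089983.1. GLRX (chromosome 5, 95751319 to 95823005, minus strand) overlaps RHOBTB3 on the other strand. Whether counting used the strand is not stated, so reads of these neighbours could enter.

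Among the peroxide-removing genes, PRDX1 and GPX4 rose after TSA, by 1.85-fold and 1.78-fold. PRDX1, an abundant peroxidase that thioredoxin keeps reduced, was at 369 and 342 CPM with DMSO, 757 and 561 CPM with TSA, and 531 and 445 CPM with E6R. Both TSA libraries were above both E6R libraries, which were above both DMSO libraries. The TSA difference was 0.89 (SE 0.22, adjusted p = 0.0211). It was 0.59 (adjusted p = 0.0991) when libraries were scaled by their totals alone. It also missed the threshold when DMSO replicate 1 (0.99, adjusted p = 0.0685), DMSO replicate 2 (0.76, adjusted p = 0.132) or TSA replicate 1 (0.69, adjusted p = 0.142) was dropped. E6R minus DMSO was 0.46 (SE 0.22, adjusted p = 0.332), and E6R minus TSA was -0.43 (SE 0.22, adjusted p = 0.159). PRDX1 lies on chromosome 1 at 45511036 to 45523047 (minus strand) and overlaps MMACHC, which is on the other strand.

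GPX4, the selenoenzyme that reduces lipid hydroperoxides and guards against ferroptosis, had 564 and 614 CPM with DMSO, 998 and 1097 CPM with TSA, and 379 and 527 CPM with E6R. TSA was the highest group and E6R the lowest, without overlap. The TSA difference was 0.83 (SE 0.22, adjusted p = 0.0276). It did not pass when libraries were scaled by their totals (0.52, adjusted p = 0.119), without the 5% of cells with most UMIs (0.73, adjusted p = 0.0517), or without any 1 of the 4 libraries compared. Dropping DMSO replicate 1 gave 0.81 (adjusted p = 0.104), and DMSO replicate 2 also 0.81 (adjusted p = 0.0978). Dropping TSA replicate 1 gave 0.93 (adjusted p = 0.0890), and TSA replicate 2 gave 0.80 (adjusted p = 0.131). E6R minus DMSO was -0.38 (SE 0.22, adjusted p = 0.413). Under E6R, GPX4 was at 0.432 of its TSA level (log2 fold change -1.21, SE 0.23, adjusted p = 0.00496), a call that held in all 17 alternatives. It lies on chromosome 19 at 1103926 to 1106791 (plus strand).

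SRXN1 had 16.6 and 32.7 CPM with DMSO, 38.3 and 43.5 CPM with TSA, and 24.5 and 21.97 CPM with E6R. The TSA libraries were above the other 4, and the DMSO libraries spanned those of E6R. The TSA minus DMSO value of 0.73 (SE 0.32) had an adjusted p of 0.122. Without DMSO replicate 2, the higher of that pair, it was 1.22 with an adjusted p of 0.0423. E6R minus TSA was -0.82 (SE 0.31, adjusted p = 0.0729). It passed in 4 of the 17 alternatives: with cells thinned to 1000 UMIs (-1.10, adjusted p = 0.0355), without the 5% of cells with most UMIs (-0.97, adjusted p = 0.0471), with the replicate number as a block (-0.80, adjusted p = 0.0366) and without DMSO replicate 1 (-0.72, adjusted p = 0.0460). Over all 17 the adjusted p ranged from 0.0355 to 0.290. SRXN1 is on chromosome 20 at 646615 to 653370 (minus strand). It overlaps the protein-coding gene AL121758.1 on its own strand, which the matrices do not list.

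NQO1, a quinone reductase widely used as a readout of NRF2, was at 72.7 and 78.8 CPM with DMSO, 26.1 and 12.97 CPM with TSA, and 111 and 85.5 CPM with E6R. The TSA libraries were the 2 lowest and the E6R libraries the 2 highest. The means were 75.7 ± 4.34, 19.6 ± 9.30 and 98.1 ± 17.8 CPM (SD, n = 2 each). NQO1 fell to 0.259 of its DMSO level after TSA (log2 fold change -1.95, SE 0.33, adjusted p = 0.00507), and this call held in all 17 alternatives, with values from -2.52 to -1.50. E6R minus DMSO was 0.37 (SE 0.32, adjusted p = 0.569). E6R minus TSA was 2.32 (SE 0.33, adjusted p = 0.00175). The gene is on chromosome 16 at 69706996 to 69726951 (minus strand) and overlaps an antisense gene, AC092115.2.

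GCLM was lower than DMSO in the libraries of both compounds. It had 57.6 and 47.05 CPM with DMSO, 23.2 and 28.2 CPM with TSA, and 25.8 and 24.1 CPM with E6R. All 4 treated libraries were below both DMSO libraries, and the E6R libraries lay between those of TSA. GCLM fell to 0.492 of its DMSO level after TSA (log2 fold change -1.02, SE 0.23, adjusted p = 0.0131). That call was lost without DMSO replicate 1 (-0.83, adjusted p = 0.0968), without TSA replicate 1 (-0.86, adjusted p = 0.122) and without TSA replicate 2 (-1.13, adjusted p = 0.0726). For E6R the difference from DMSO was -1.07 (SE 0.22), with an unadjusted p of 0.00144 and an adjusted p of 0.205 in edgeR, and DESeq2 gave an adjusted p of 0.0136. The direct difference between the compounds was -0.045 (SE 0.22, adjusted p = 0.885). GCLM lies on chromosome 1 at 93885205 to 93909456 (minus strand).

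**Figure D2:**
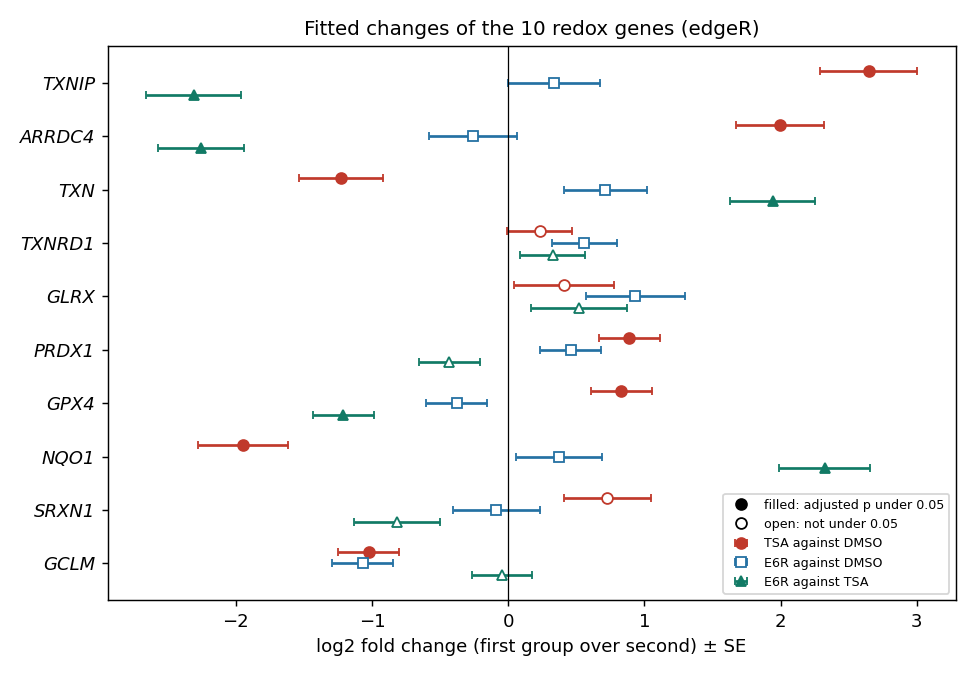
Log2 fold changes of the 10 genes in the 3 comparisons, with bars of 1 standard error from edgeR and filled points where the adjusted p was under 0.05. TSA minus DMSO has filled points on both sides of 0, E6R minus DMSO has none, and E6R minus TSA has 5.

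The 5 members called in E6R against TSA were among the 7 called in TSA against DMSO, and both comparisons rest on the same TSA libraries. TXN and NQO1 were higher under E6R and TXNIP, ARRDC4 and GPX4 were lower, 2 in one direction and 3 in the other, where 18.7% and 19.5% of all genes were called in those directions. Each of these 5 calls held in all 17 alternatives. By levels alone, both E6R libraries were above both DMSO libraries for 5 members (TXN, TXNRD1, GLRX, PRDX1 and NQO1) and below them for 2 (GPX4 and GCLM). Such separation was seen for 47.3% of all genes tested in that comparison. The E6R libraries also had the lowest mitochondrial shares, given above. The part of this difference in the values here was not tested. With mitochondrial and ribosomal protein genes taken out of the sums, E6R minus DMSO for TXNIP was again 0.34, and 0 members were called. TMM trims genes with extreme changes in both fits, so this refit does not test the mitochondrial difference.

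The share of cells with at least 1 UMI was compared after thinning cells to 1000 UMIs, since deeper cells show more genes. Cells with fewer UMIs were left out, so these shares describe the deeper cells of each library. This kept 1187 of 1861 and 1682 of 3132 cells with DMSO and 1852 of 2467 and 2789 of 3292 with TSA. With E6R it kept 2199 of 2891 and 2228 of 3946. TXNIP was seen in 9.44% and 9.04% of DMSO cells, 32.2% and 31.7% of TSA cells, and 7.46% and 14.4% of E6R cells. Without thinning these were 16.1% and 13.4%, 52.3% and 52.2%, and 21.3% and 28.97%. In thinned cells the means for GPX4 were 45.7% ± 1.06 with DMSO, 58.7% ± 1.28 with TSA and 36.2% ± 3.98 with E6R (SD, n = 2 each). NQO1 was seen in 7.11% ± 0.286, 1.60% ± 0.944 and 9.34% ± 2.04 of cells, and GCLM in 5.72% ± 0.607, 2.09% ± 0.628 and 1.99% ± 0.301. TXN was seen in 11.8% ± 5.19, 4.50% ± 1.96 and 14.8% ± 1.22. Over the 10 members, the TSA and DMSO libraries did not overlap on this measure for 7, those 5 with ARRDC4 and PRDX1, and overlapped for TXNRD1, GLRX and SRXN1. They did not overlap for 62.4% of all genes tested. Where they did not, the two-sided exact permutation p was 0.333, the smallest that 2 libraries against 2 can give. No cell type that lacks these genes was present in this single line, so the part of free RNA in the shares was not measured that way. In barcodes with under 500 genes, TXNIP stood at 102 and 123 CPM with DMSO, 432 and 420 CPM with TSA and 77.3 and 231 CPM with E6R, without TMM. The same unscaled measure in cells was 104 and 108, 580 and 496, and 76.5 and 169 CPM.

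**Figure D3:**
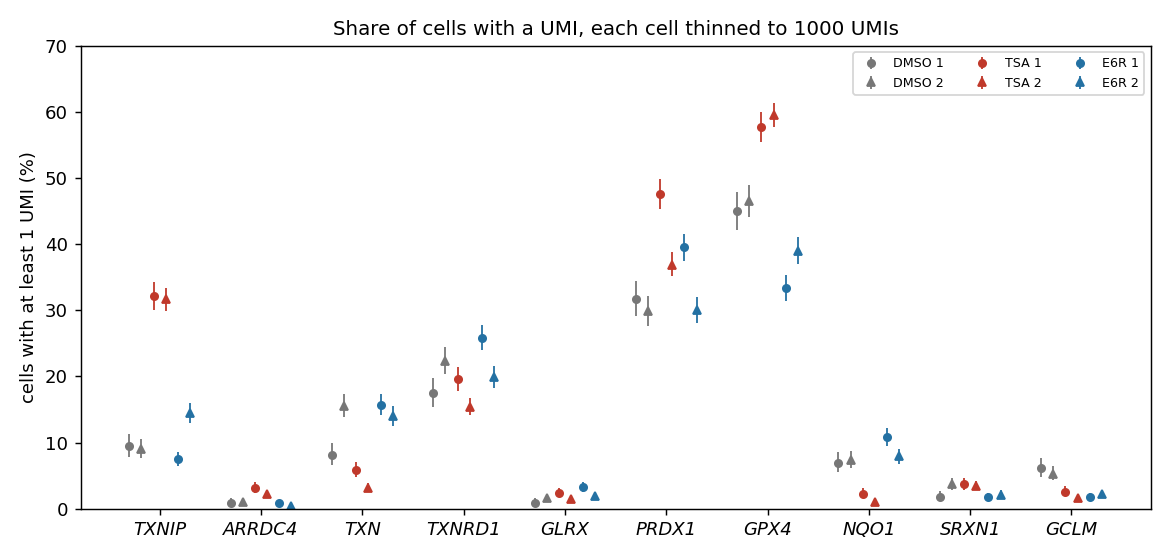
Percent of cells with at least 1 UMI of each gene after thinning cells to 1000 UMIs, with a point for each library. Cells with fewer UMIs are left out. Bars are 95% binomial intervals over cells and do not measure the spread between libraries. TXNIP reaches 32.2% and 31.7% in the TSA libraries and stays at or below 14.4% in the other 4.

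Thinned cells of the TSA libraries held several TXNIP molecules more often than those of the other 4 libraries. Their mean TXNIP UMIs per thinned cell were also higher, at 0.541 and 0.456 with TSA. The means were 0.110 and 0.106 with DMSO, and 0.0805 and 0.193 with E6R. Whether the shares below differ beyond these means was not tested. In DMSO replicates 1 and 2, 0.253% and 0.119% of cells had 3 or more TXNIP UMIs, against 4.97% and 2.98% in TSA replicates 1 and 2. E6R replicate 1 had 0.0455%, which was 1 cell, and E6R replicate 2 had 0.763%, which was 17 cells. Cells with exactly 1 TXNIP UMI made up 19.6% and 22.3% of TSA cells and between 6.91% and 12.1% of cells in the other 4 libraries. The Fano factor, the variance of UMIs per cell over their mean, which is 1 for counting noise alone, was 1.90 and 1.49 for TXNIP in TSA cells. It was 1.26 and 1.21 in DMSO cells and 1.08 and 2.12 in E6R cells. In 67.8% and 68.3% of thinned TSA cells no TXNIP UMI was seen, which at this depth does not show that the gene was off.

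**Figure D4:**
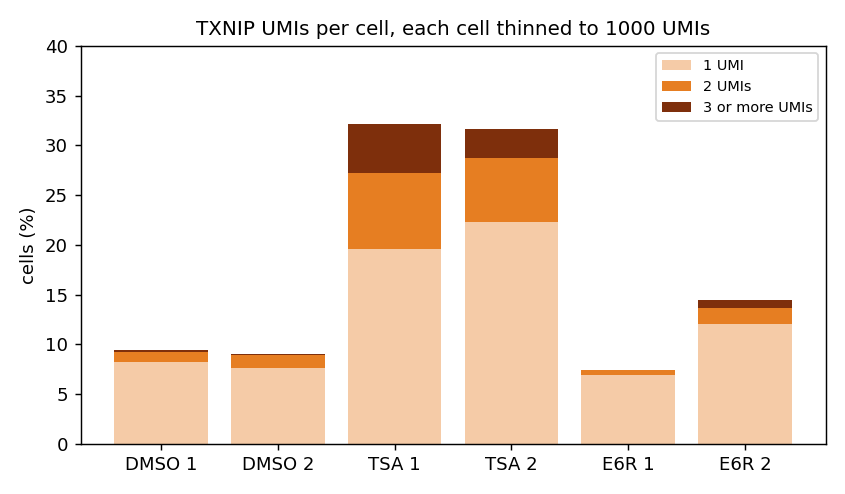
Percent of cells with 1, 2, and 3 or more TXNIP UMIs in each library, with cells thinned to 1000 UMIs and those with fewer left out. The TSA libraries have 4.97% and 2.98% of cells with 3 or more, and the other 4 have at most 0.763%.

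Member pairs were also followed within cells of the same library, as odds ratios of both being seen in thinned cells, where 1 means that they are seen together as often as their separate shares give. TXNIP and TXNRD1 had odds ratios from 0.804 to 1.13 over the libraries, and TXNRD1 and PRDX1 from 0.902 to 1.35. The widest range among the pairs was that of TXN and GCLM. It was 0.302 in DMSO replicate 1 (2 cells with both) and 1.63 in DMSO replicate 2 (20 cells with both). With so few UMIs per gene, these values are no more than a description.

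Across the 6 libraries, the 5 genes whose log2 CPM followed that of TXNIP most closely were SLC25A10 (Pearson r = 0.998), CTSH, CEND1, PRPF4 and CORO1A (0.997 each), among 7515 genes with a mean of at least 20 CPM. SLC25A10, the mitochondrial dicarboxylate carrier, had 43.8 and 41.3 CPM with DMSO, 128 and 117.1 CPM with TSA and 36.96 and 60.2 CPM with E6R. Among the members in that set, GPX4 came nearest to TXNIP (r = 0.920) and NQO1 was farthest from it (r = -0.920), with TXN at -0.791. ARRDC4, with a mean of 17.0 CPM, was under the cut and was not compared. Over 6 libraries in 3 groups these values mostly restate which group was high.

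The wider pathway was read from 7 lists of thioredoxin, glutathione, NRF2, TXNIP-axis, superoxide and selenoprotein genes, of which 105 of 113 listed genes were tested. After TSA, 19 of the 105 rose, 16 fell and 70 were not called, near the shares over all genes, 16.2% higher and 13.5% lower. After E6R, 0 were called by edgeR, with 12 higher and 8 lower at an unadjusted p under 0.05. Between E6R and TSA, 21 were higher and 21 lower under E6R, beside 18.7% and 19.5% of all genes. The medians of the 105 genes were 0.18 for TSA and 0.10 for E6R against DMSO on the log2 scale, beside -0.011 and 0.030 over all genes. The lists too were chosen with earlier results of these data known. The counts for single lists below are descriptions, to be read against the same shares, and test nothing about the lists.

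Of 12 genes tested on the TXNIP axis, which holds alpha-arrestins, the MLX partners and glucose transporters, 5 rose and 0 fell after TSA, with a median of 0.58, where 16.2% of all genes rose, 13.5% fell and the median was -0.011. DDIT4, an mTORC1 inhibitor that stress induces, went from a mean of 19.1 CPM to 65.8 CPM (log2 fold change 1.78, SE 0.34, adjusted p = 0.00799), and was at 18.1 CPM with E6R. The other 4 that rose, named here after their values were seen, were ARRDC3, ARRDC1, the glucose transporter SLC2A3 and MLX. MLX went from 63.9 and 61.97 CPM with DMSO to 122 and 118 CPM with TSA (0.93, adjusted p = 0.00869), and its partner gene MLXIP, which encodes MondoA and is named after its values were seen too, was not called (0.20, adjusted p = 0.671).

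Of the 10 NRF2 regulators, 1 rose and 3 fell after TSA, with a median of -0.47, beside 16.2%, 13.5% and -0.011 over all genes. KEAP1, the adaptor that marks NRF2 for degradation, had 106 and 111 CPM with DMSO, 26.8 and 23.3 CPM with TSA and 144 and 113 CPM with E6R. It fell after TSA (log2 fold change -2.12, SE 0.21, adjusted p = 0.00102). NFE2L2, which encodes NRF2 and is named after its values were seen, had 49.5 and 63.1 CPM with DMSO, 23.3 and 21.07 CPM with TSA and 64.1 and 54.9 CPM with E6R. NFE2L2 also fell after TSA (-1.34, adjusted p = 0.00475), as did its partner gene MAFG, while the small MAF gene MAFK was the one that rose, both likewise named after their values were seen. The RNA of the inhibitor and that of the factor thus fell in the same samples. Of 16 NRF2 targets beyond the members, 4 rose and 2 fell. BLVRB, which reduces biliverdin, rose from 29.5 to 107 CPM (1.85, SE 0.41, adjusted p = 0.0136), and ME1, which makes NADPH, fell from 41.8 to 17.8 CPM (-1.22, SE 0.28, adjusted p = 0.0144).

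In the glutathione list, 3 of 23 tested genes rose and 5 fell after TSA, and 8 were higher and 2 lower under E6R than under TSA. Over all genes 16.2% rose and 13.5% fell after TSA, and 18.7% were higher and 19.5% lower under E6R than under TSA. GSTO1, an omega-class glutathione transferase, fell from 174 to 40.2 CPM (-2.11, SE 0.31, adjusted p = 0.00300). GSTM3, of the mu class, rose from 91.5 to 188 CPM (1.04, SE 0.28, adjusted p = 0.0282). SLC7A11, the cystine carrier that feeds glutathione synthesis, is named after its values were seen: 35.1 and 17.02 CPM with DMSO, 4.63 and 3.05 CPM with TSA, and 29.4 and 15.8 CPM with E6R. It fell after TSA by 2.75 (adjusted p = 0.00559). GCLC, the catalytic partner of GCLM, also named after its values were seen, was not called after TSA (0.46, adjusted p = 0.190). Its CPM went from 23.6 and 26.97 with DMSO to 34.7 and 35.1 with TSA, so the ligase's subunit genes lay on opposite sides of DMSO.

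In the thioredoxin list, 3 of 20 rose and 3 fell after TSA, near the 16.2% and 13.5% of all genes. MSRB1, a selenium-dependent methionine sulfoxide reductase, rose from 67.0 to 188 CPM (1.49, SE 0.20, adjusted p = 0.00242). TXNRD2, the mitochondrial thioredoxin reductase, fell from 43.2 to 12.2 CPM (-1.83, SE 0.23, adjusted p = 0.00191), whereas TXNRD1 was not called. Of 15 tested genes in the selenoprotein list, which also holds factors that make or insert selenocysteine, 2 rose and 2 fell. EEFSEC, the elongation factor that inserts selenocysteine, rose from 55.7 to 225 CPM (2.01, SE 0.24, adjusted p = 0.00159), and SELENOT, of the endoplasmic reticulum, fell from 106 to 45.5 CPM (-1.22, SE 0.30, adjusted p = 0.0190). Among 9 superoxide and ferroptosis genes 1 rose and 1 fell. CCS, the copper chaperone of superoxide dismutase, rose from 30.2 to 77.8 CPM (1.37, SE 0.32, adjusted p = 0.0162). All of these genes were uncalled in E6R against DMSO.

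**Figure D5:**
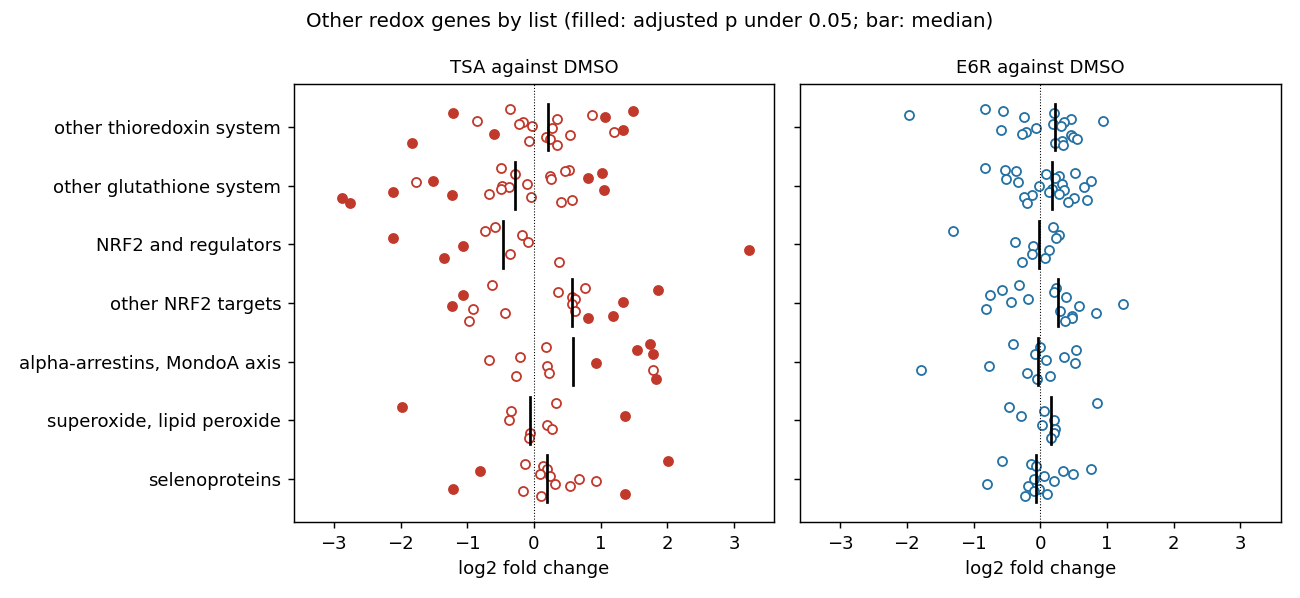
Log2 fold change of each gene in the wider lists, for TSA against DMSO and for E6R against DMSO. Points are filled where the adjusted p was under 0.05, and a bar marks the median of each list. The TXNIP axis has 5 genes called higher and 0 called lower after TSA, and no list has a called gene in E6R against DMSO.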

How the data were processed

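Single-cell 3′ libraries of SK-N-BE(2)-C cells were aligned and counted with STARsolo 2.7.9a on GRCh38, per the submitters' processing notes. Their annotation, strand rule and barcode calling are not given in the sources used here. Deposited values are whole-number UMI counts per gene and barcode, not normalized by the authors. From 90306 barcodes, cells with at least 500 genes and at most 20% mitochondrial UMIs were kept. No doublet caller was run, and an alternative left out the 5% of cells with most UMIs.

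Counts were summed per library, since cells are not replicates, and fitted with edgeR 4.0.16 (R 4.3.3): filterByExpr (minimum count 10), TMM, quasi-likelihood F-test, group as the only term, all 6 libraries in one fit, and Benjamini-Hochberg adjustment over 16763 genes. Standard errors are the log2 fold change over the root of F. The common biological coefficient of variation was 0.288. DESeq2 1.42.0 was an alternative, and the closing section gives the others. The code was checked on simulated counts. Replicates within a group differed by far more than counting noise (chi-square per degree of freedom of 17.1 or more), so each counted as 1 sample. Depth per library and per cell is given above, and intervals from counts, drawn with the shares of cells, cover counting error only.

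The members and lists were chosen with earlier results of these data known. Named besides the 10 members were the largest called rise and fall per list at a mean of 20 CPM or more, and the 5 genes most correlated with TXNIP. Further list genes, under 20 CPM or uncalled ones among them, were chosen after their values were seen and are marked so in the text. Loci are from GENCODE 29 and promoter windows from RefSeq (GRCh38.p14). GPX1 is not analysed here, and a marker of the adrenergic list is not reported here. Shares of cells were computed unthinned and with cells thinned to 1000 or 500 UMIs, leaving out cells with fewer UMIs than that.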

Additional observations from a re-analysis of the deposited data

How the results depend on the processing

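For TSA against DMSO, 4975 genes and 7 members were called, and leaving out 1 library gave 1416 to 6028 genes and 3 to 7 members, with fewest for both when TSA replicate 2 was dropped. For E6R against DMSO, where 0 genes and 0 members were called, edgeR with no low-count filter called 1095 genes and 2 members (TXN and GLRX), DESeq2 called 338 genes and 1 member (GCLM), sums without mitochondrial and ribosomal protein genes 1 gene, and leaving out 1 library 0 to 3 genes. For E6R against TSA, where 6408 genes and 5 members were called, sums of cells thinned to 1000 UMIs called 4095 genes, and leaving out 1 library gave 2628 to 6385 genes and 5 to 6 members. In fits lacking 1 library, the lone sample of its group is assumed to vary like the others.

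With the replicate number as a replicate block, 19 genes and 0 members were called for E6R against DMSO, 6047 genes and 7 members for TSA against DMSO, and 7567 genes and 6 members for E6R against TSA, where SRXN1 was added (-0.80, adjusted p = 0.0366). Deviations of same-numbered libraries from their group means correlated at 0.242 (DMSO and TSA), 0.564 (DMSO and E6R) and 0.166 (TSA and E6R) over 7515 genes. The labels name no shared source for a number, and each of these correlations rests on 1 difference between libraries per group, so whether the numbers mark a shared source is not settled and the block stays an alternative.

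Directions turned for values that were not called. TXNRD1 in TSA against DMSO was -0.073 with scaling by totals. GCLM in E6R against TSA was 0.14 with totals, 0.21 with no filter, 0.0098 in cells with at most 10% mitochondrial UMIs, 0.049 without mitochondrial and ribosomal protein genes, and from -0.17 to 0.10 over fits without 1 library. SRXN1 in E6R against DMSO was 0.081 with no filter. Over fits without 1 library in that comparison, SRXN1 ranged from -0.36 to 0.53 (above 0 without DMSO replicate 2 or E6R replicate 2), TXNIP from -0.29 to 0.90 and ARRDC4 from -0.51 to 0.079 (for TXNIP and ARRDC4, both ends from dropping an E6R library). Unthinned, the differences in percent of cells with a UMI became 1.77 (ARRDC4, E6R minus DMSO), 12.5 (TXNRD1, TSA minus DMSO), 5.003 (SRXN1, E6R minus DMSO), 0.341 (GCLM, E6R minus DMSO) and 1.73 (GCLM, E6R minus TSA). Thinned to 500 UMIs they were 0.0384 (ARRDC4, E6R minus DMSO), 0.0467 (TXNRD1, TSA minus DMSO) and 0.136 (GCLM, E6R minus TSA). The cause was not tested. Scaling by totals moved the median of all genes to -0.32 for TSA and -0.10 for E6R against DMSO, and to 0.08 for E6R against TSA. With 2 libraries a group, differences near the spread between libraries are not resolved.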
